A study of Rattus norvegicus with 9 samples.

Results

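The small leucine-rich proteoglycans are secreted matrix proteins whose curved leucine-rich repeats bind collagen fibrils, and 7 genes of the family, Bgn, Dcn, Lum, Fmod, Ogn, Prelp and Aspn, were taken by symbol from the 30518 gene rows of a rat muscle RNA-seq data set. Each symbol had 1 row, and all 7 were among the 16256 genes that passed the filter on low counts. The tissue was pubococcygeus, one of the striated muscles that close the pelvic floor. In the stimulated group, female Sprague-Dawley rats had SUI modelling (stress urinary incontinence: removal of both ovaries, plus a vaginal distension with an 8 Fr balloon of 3 mL saline under a 120 g weight for 4 h) and, starting 1 week later, transvaginal PFES (pelvic floor electrical stimulation), given as 200 µs pulses of 20 mA at 50 Hz in sessions of 30 min, 5 days per week for 2 weeks. The SUI group had the same modelling and no additional treatment, and the blank group had neither surgery nor treatment. Ages are not given in the sources used here. Each group of 8 rats is represented by 3 libraries, 9 in all, and how libraries relate to rats is not stated beyond a replicate number, so every p-value reflects only how these libraries vary. No group had surgery without ovary removal or distension, or electrodes without current, so those components cannot be told apart.

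In connective tissue these proteins coat collagen fibrils, set their spacing and thickness, and hold growth factors such as TGF-beta in the matrix. Decorin (Dcn), biglycan (Bgn) and asporin (Aspn) form class I of the family, lumican (Lum), fibromodulin (Fmod) and the PRELP protein (Prelp) belong to class II, and osteoglycin (Ogn) to class III. In muscle they are made mainly by fibroblast-like cells between the fibres and in tendon, rather than by the fibres. In such bulk tissue, fewer cells of a type and less RNA per cell cannot be told apart.

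The labels used here do not divide the 9 libraries by batch, so batch effects were not assessed. Libraries held between 50833480 and 147650284 counts. All 10 muscle fibre markers on the list were detected in every library, with a sum of 153636 to 192494 CPM in stimulated, 106883 to 186627 in SUI and 149338 to 204300 in blank muscle (CPM: counts scaled to library size with TMM factors). Blank replicate 1 stood apart, with the lowest depth, 32.9% of its counts on the mitochondrial genome against 13.4% to 17.7% elsewhere, and a median correlation with the other libraries of 0.920 against 0.949 to 0.968. For SUI over blank, the log2 fold changes of the members without it are given below.

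Decorin dominated the family in all 9 libraries. On the length-scaled FPKM scale, which allows genes to be compared, Dcn averaged 178 ± 99.4 in stimulated, 163 ± 83.7 in SUI and 174 ± 56.7 in blank muscle (SD, n = 3 each). Its range was above that of every other member within each group. Lum, which shares a collagen binding site with fibromodulin, came next with 33.9 ± 19.1 FPKM in stimulated, 12.1 ± 2.74 in SUI and 20.9 ± 3.66 in blank muscle. Lum exceeded the gene ranked after it in 3 of 3 stimulated and 3 of 3 blank libraries, but in 2 of 3 SUI libraries.

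Bgn and Ogn lay close together below Lum. Bgn averaged 15.9 ± 8.53 FPKM in stimulated, 9.41 ± 2.31 in SUI and 11.5 ± 5.26 in blank muscle. Ogn averaged 12.5 ± 4.96 FPKM in stimulated, 9.28 ± 2.37 in SUI and 15.8 ± 2.54 in blank muscle. Bgn was the higher of the pair in 2 of 3 stimulated and 1 of 3 SUI libraries, and Ogn was higher in 3 of 3 blank libraries.

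Prelp, a class II protein that also binds basement membranes, averaged 7.25 ± 3.80 FPKM in stimulated, 4.60 ± 2.68 in SUI and 7.65 ± 3.17 in blank muscle. Aspn averaged 6.06 ± 3.81 FPKM in stimulated, 2.44 ± 0.821 in SUI and 7.71 ± 3.81 in blank muscle. Fmod had the lowest mean in every group, at 2.12 ± 1.50 FPKM in stimulated, 1.18 ± 0.557 in SUI and 6.34 ± 5.41 in blank muscle. Below Dcn, the ranges of genes next to each other in this order overlapped in every group, so the order of Lum to Fmod is one of means. Fmod was the most uneven member, with a 23.0-fold span between its lowest and highest library, against 2.44-fold (Ogn) to 6.77-fold (Aspn) for the other 6.

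Of the 7 genes, 6 sit in pairs (coordinates on mRatBN7.2, the build of the files). Dcn (chromosome 7, 32281252 to 32321270) and Lum (chromosome 7, 32358614 to 32365793) lie on the plus strand, 37.3 kb apart, with no other row between them. Ogn (chromosome 17, 15032069 to 15052739) and Aspn (chromosome 17, 15080639 to 15104041) lie on the minus strand, with the relative Omd between them. Prelp (chromosome 13, 45370533 to 45380270, minus strand) and Fmod (chromosome 13, 45493517 to 45504133, plus strand) lie 113 kb apart. Inside or touching that gap are 2 rows, among them a clone-based gene, AABR07020987.1. Bgn is on chromosome X, 151197273 to 151209461, plus strand. Cenpp, a centromere protein gene annotated on the plus strand, spans both Ogn and Aspn. Strand-specific counting is not stated, and Cenpp was at 0.363 to 0.935 CPM in all 9 libraries, below the lowest value of Ogn (24.8) and of Aspn (2.53).

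Promoters were taken from RefSeq (GRCr8 build), where 4 of the 7 members matched: Lum, Fmod, Ogn and Aspn. These 4 are shown because the other members, Bgn, Dcn and Prelp, had no entry there. Among the 7 members Lum had the largest log2 fold change between stimulated and SUI muscle, and Fmod the largest between SUI and blank muscle. Ogn and Aspn are the neighbours whose SUI and blank values did not overlap. Each is the 250 bases before the gene's start, 5′ to 3′ on the gene's own strand. Capitals mark matches on either strand to TATAAA (the TATA box), TGANTCA (the AP-1 site), GGGCGG (the GC box) and CAGAC (the short motif read by Smad proteins, written GTCTG on the other strand).
Lum, chr7:34245456-34245705, plus strand: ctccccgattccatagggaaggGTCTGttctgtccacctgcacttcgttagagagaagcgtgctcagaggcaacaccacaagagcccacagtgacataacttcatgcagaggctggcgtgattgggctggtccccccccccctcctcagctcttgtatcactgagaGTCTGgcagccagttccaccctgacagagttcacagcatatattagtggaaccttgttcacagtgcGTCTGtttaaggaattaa
Fmod, chr13:48045317-48045566, plus strand: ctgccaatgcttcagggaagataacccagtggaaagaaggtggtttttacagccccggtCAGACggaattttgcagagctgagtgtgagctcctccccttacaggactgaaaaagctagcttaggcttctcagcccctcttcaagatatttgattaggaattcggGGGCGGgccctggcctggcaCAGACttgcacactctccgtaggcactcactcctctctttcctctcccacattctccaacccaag
Ogn, chr17:15258996-15259245, minus strand: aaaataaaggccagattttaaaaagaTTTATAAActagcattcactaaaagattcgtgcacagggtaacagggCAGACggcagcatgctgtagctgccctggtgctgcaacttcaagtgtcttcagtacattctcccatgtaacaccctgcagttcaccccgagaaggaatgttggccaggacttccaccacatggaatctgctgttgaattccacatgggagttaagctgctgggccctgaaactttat
Aspn, chr17:15310470-15310719, minus strand: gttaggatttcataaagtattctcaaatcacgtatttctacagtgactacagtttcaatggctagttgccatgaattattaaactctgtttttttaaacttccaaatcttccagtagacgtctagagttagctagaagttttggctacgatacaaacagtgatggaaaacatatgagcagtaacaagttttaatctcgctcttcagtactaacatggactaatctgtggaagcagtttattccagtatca
CAGAC was present in Lum (3 matches), Fmod (2) and Ogn (1), and in 42.9% of all 33469 promoters. GGGCGG was found in Fmod and in 30.5% of all promoters. TATAAA was found in Ogn, at 222 and 224 bases before the start on opposite strands and overlapping, and in 12.9% of all promoters. TGANTCA was in none of the 4 and in 6.34% of all promoters. No match says only that these letters are not in this window.

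**Figure D1:**
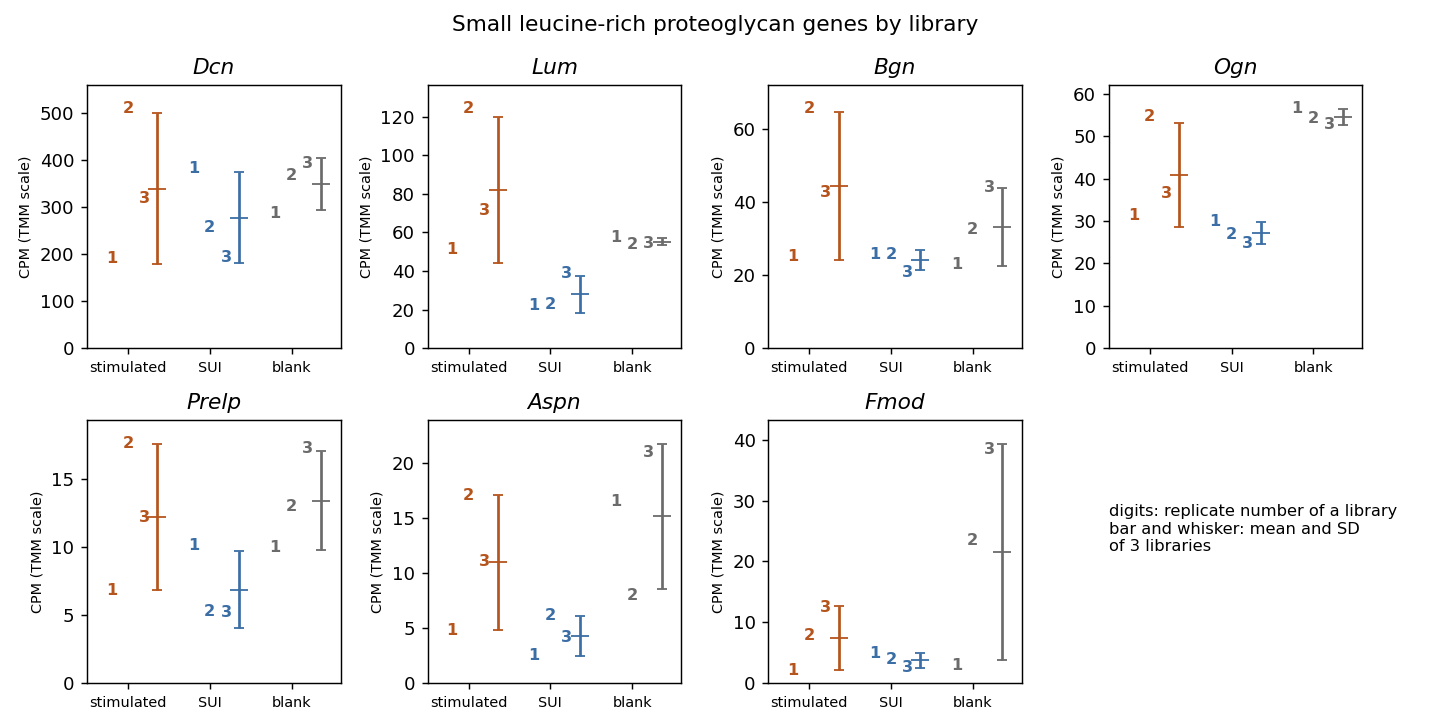
CPM (TMM scale) of each member in the 3 groups; digits are the replicate numbers of single libraries, and the bar with whiskers is the mean ± SD of 3 libraries. The SUI libraries of Lum (21.9 to 38.7), Ogn (24.8 to 30.0) and Aspn (2.53 to 6.10) all lie below the blank ones, while those of Dcn, Bgn, Prelp and Fmod overlap them.

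The first comparison asked how the SUI model changed the muscle. All 7 members had lower fitted means in SUI than in blank muscle, where 49.2% of all genes tested did, and their median log2 fold change was -0.99, against 0.01 over all genes tested. None passed the threshold of adjusted p under 0.05 with edgeR's quasi-likelihood test over all genes tested, and neither did any other gene in this comparison (0% called). At an unadjusted p under 0.05, 5 of the 7 were lower in SUI, against 5.34% of all genes. This count depended on the processing. It was 3 with library totals, 3 with a replicate block, 2 with log2(FPKM + 1), 2 with log2(FPKM + 0.1) and 7 with voom. In that order, 931, 1064, 1058, 1068 and 2047 of 16256 genes were at that level in either direction.

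In the 3 SUI libraries Ogn, the class III member found on collagen fibrils, had 30.0, 26.8 and 24.8 CPM, and in the 3 blank libraries it had 56.5, 54.1 and 52.8 CPM. All 3 SUI values lie well under the lowest blank one, and the spread within each group is small. The log2 difference for Ogn was -1.002 ± 0.223 SE (edgeR adjusted p = 0.370). Aspn, which binds collagen and TGF-beta, measured 2.53, 6.10 and 4.15 CPM in SUI, against 16.6, 8.00 and 21.0 CPM in blank libraries. The groups do not overlap, but both vary more than those of Ogn. The log2 difference came to -1.83 ± 0.52 (edgeR adjusted p = 0.504).

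Lum measured 21.9, 22.9 and 38.7 CPM in SUI, against 57.2, 53.9 and 54.4 CPM in blank libraries. The blank libraries are nearly level and all above SUI, with SUI replicate 3 nearest to them. On the log2 scale Lum differed by -0.99 ± 0.34 (edgeR adjusted p = 0.549). Lum, Ogn and Aspn are thus the 3 of 7 members whose groups did not overlap on the CPM scale with SUI lower, where 7.77% of all genes tested did so.

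Fmod, which guides collagen cross-linking, measured 4.86, 3.80 and 2.46 CPM in SUI, against 2.94, 23.5 and 38.4 CPM in blank libraries. Blank replicate 1 falls inside the SUI range and the other blank libraries lie far above it. The log2 fold change was -2.55 ± 0.85 (edgeR adjusted p = 0.549), -3.04 without blank replicate 1 and -1.84 without blank replicate 3. Prelp measured 10.1, 5.26 and 5.18 CPM in SUI, against 9.98, 13.0 and 17.2 CPM in blank libraries, and the groups overlap through SUI replicate 1. For Prelp the log2 fold change was -0.97 ± 0.39 (edgeR adjusted p = 0.580).

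Bgn and Dcn had the smallest log2 fold changes of the 7, whereas Aspn, like them of class I, had -1.83. Bgn, which binds the dystrophin complex and Toll-like receptors, measured 25.8, 25.7 and 20.9 CPM in SUI, against 22.8, 32.6 and 44.1 CPM in blank libraries. Dcn, the main collagen-bound proteoglycan of muscle, measured 382, 255 and 192 CPM in SUI, against 286, 366 and 392 CPM in blank libraries. Both pairs of groups overlap, with log2 fold changes of -0.46 ± 0.35 for Bgn and -0.33 ± 0.37 for Dcn (edgeR adjusted p = 0.691 and 0.780). Without blank replicate 3 the Bgn value was -0.20, and without blank replicate 1 it was -0.65. The Dcn value was -0.65 without SUI replicate 1 and -0.13 without SUI replicate 3.

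With DESeq2 in place of edgeR, Ogn (adjusted p = 0.00827) and Aspn (adjusted p = 0.0386) passed as lower in SUI, among 0.855% of all genes called lower by that tool. Over all alternatives the adjusted p reached 0.773 for both genes. Under the other alternatives no member passed in this comparison, and edgeR called 0 members with each of the 9 libraries left out in turn. Without blank replicate 1 the edgeR log2 fold change was -0.96 for Ogn, -1.76 for Aspn and -0.95 for Lum. It was -1.12 for Prelp and -0.43 for Dcn.

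The second comparison asked what stimulation changed in rats that all had the model. All 7 members had higher fitted means in stimulated than in SUI muscle, where 52.6% of all genes did, with a median log2 fold change of 0.88 against 0.02 over all genes tested. No member passed with edgeR, where 0.0123% of all genes were called. At an unadjusted p under 0.05, 4 of the 7 were higher, against 5.23% of all genes. The SUI libraries are the same as in the comparison with blank muscle, so the opposite signs of both comparisons are not independent of each other.

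Lum measured 50.9, 124 and 71.3 CPM in stimulated libraries, against 21.9, 22.9 and 38.7 CPM in SUI libraries. Every stimulated library exceeds every SUI library, and stimulated replicate 2 stands highest. The log2 fold change was 1.56 ± 0.34 (edgeR adjusted p = 0.290) and 1.14 without stimulated replicate 2. DESeq2 called Lum higher (adjusted p = 0.00484), among 0.941% of all genes called higher by that tool, and called no other member. Over all alternatives the adjusted p of Lum ranged from 0.00484 to 0.750.

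Aspn measured 4.82, 17.1 and 11.1 CPM in stimulated libraries, against 2.53, 6.10 and 4.15 CPM in SUI libraries. Stimulated replicate 1 lies inside the SUI range. The log2 fold change was 1.37 ± 0.51 (edgeR adjusted p = 0.538) and 0.90 without stimulated replicate 2. Its neighbour Ogn measured 31.3, 54.6 and 36.4 CPM in stimulated libraries, against 30.0, 26.8 and 24.8 CPM in SUI libraries. These Ogn values do not overlap, by a narrow margin, and on the FPKM scale they do. The Ogn log2 fold change was 0.59 ± 0.22 (edgeR adjusted p = 0.541) and 0.32 without stimulated replicate 2. Lum and Ogn were the 2 members of 7 with no overlap on the CPM scale and stimulation higher, where 9.52% of all genes tested had none.

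Bgn measured 25.2, 65.7 and 42.7 CPM in stimulated libraries, against 25.8, 25.7 and 20.9 CPM in SUI libraries, with stimulated replicate 1 at the SUI level. For Bgn the log2 fold change was 0.88 ± 0.35 (edgeR adjusted p = 0.562) and 0.49 without stimulated replicate 2. Prelp measured 6.83, 17.6 and 12.2 CPM in stimulated libraries, against 10.1, 5.26 and 5.18 CPM in SUI libraries, and Fmod 1.97, 7.85 and 12.4 CPM against 4.86, 3.80 and 2.46 CPM. In both genes a stimulated library lies within or below the SUI range. Their log2 fold changes were 0.83 ± 0.39 and 1.00 ± 0.81 (edgeR adjusted p = 0.644 and 0.820). Prelp was at 0.47 without stimulated replicate 2, and Fmod at 0.41 without stimulated replicate 3.

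Dcn measured 189, 508 and 318 CPM in stimulated libraries, against 382, 255 and 192 CPM in SUI libraries. Each group spans most of the range of the other. The fitted difference was 0.29 ± 0.37 on the log2 scale (edgeR adjusted p = 0.909), and -0.12 without stimulated replicate 2.

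**Figure D2:**
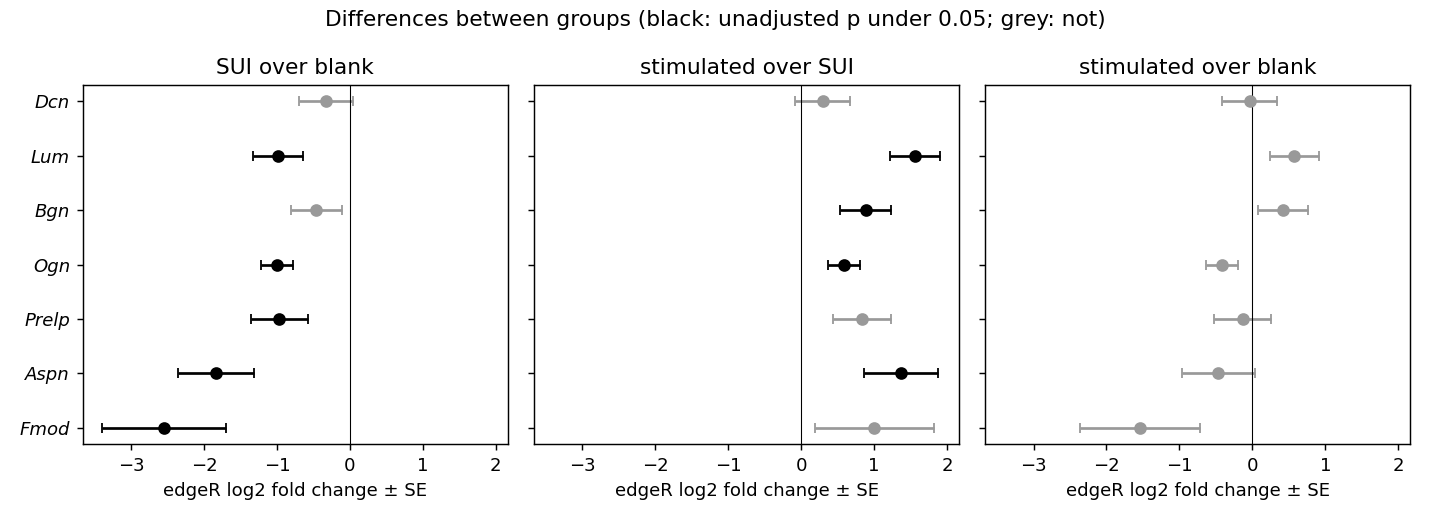
edgeR log2 fold changes ± SE of the 7 members in the 3 comparisons, ordered by mean FPKM in stimulated muscle with Dcn at the top; black points have an unadjusted p under 0.05. SUI over blank is below 0 for all 7 and stimulated over SUI above 0 for all 7, no member passes the adjusted threshold, and Dcn has the smallest difference in each panel.

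Stimulated and blank muscle could be set side by side in the third comparison, which asked whether members differed between treated model rats and untouched rats. No member passed at an unadjusted p under 0.05 (1.96% of all genes were higher and 1.81% lower at that level), and 0.00615% of all genes were called with adjustment. The median log2 fold change was -0.13, against 0.04 over all genes tested. Lum (0.57 ± 0.33) and Bgn (0.42 ± 0.35) had positive log2 fold changes, and Fmod (-1.55 ± 0.82), Aspn (-0.47 ± 0.50), Ogn (-0.42 ± 0.22), Prelp (-0.13 ± 0.39) and Dcn (-0.04 ± 0.37) negative ones. Without stimulated replicate 2 the values were 0.15 for Lum and 0.032 for Bgn. The log2 fold change was thus positive for 2 (54.3% of all genes) and negative for 5 (45.7%). The ranges of all 7 overlapped on the CPM scale, where 7.9% of all genes were higher and 4.72% lower without overlap, and on the FPKM scale. DESeq2 called no member either, with 0.0492% of all genes called higher and 0.08% lower. These intervals leave room for differences of a size seen in the other comparisons, so equality is not shown.

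The libraries of the stimulated group did not move together. Stimulated replicate 1 was the lowest of its group for all 7 members, and stimulated replicate 2 the highest for 6 of 7, Fmod being highest in replicate 3. The mean of the 7 members, as log2 CPM minus each gene's mean over the 9 libraries, was -0.61, 0.83 and 0.37 in the stimulated libraries, -0.51, -0.61 and -0.80 in the SUI libraries, and 0.01, 0.45 and 0.88 in the blank libraries. SUI was thus the most even group on this measure, and stimulated replicate 1 lay among the SUI libraries.

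Summed over the 7 genes, the level was 129, 406 and 232 FPKM in stimulated libraries, 304, 169 and 133 FPKM in SUI libraries and 156, 273 and 303 FPKM in blank libraries. These sums overlap between all groups, and they follow Dcn, which made up 68.1% to 70.0% of the sum in stimulated, 73.3% to 84.7% in SUI and 69.9% to 73.3% in blank libraries. Lum made up 14.2%, 13.6% and 12.1% of the sum in stimulated libraries, 3.84%, 5.66% and 11.3% in SUI libraries and 10.7%, 8.51% and 7.53% in blank libraries. Every stimulated library therefore had a larger Lum share than any other library. Bgn made up 6.14%, 6.12% and 6.37% in stimulated libraries, against 3.88% to 5.47% in SUI and 3.77% to 5.39% in blank libraries, again with the 3 stimulated libraries on top.

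**Figure D3:**
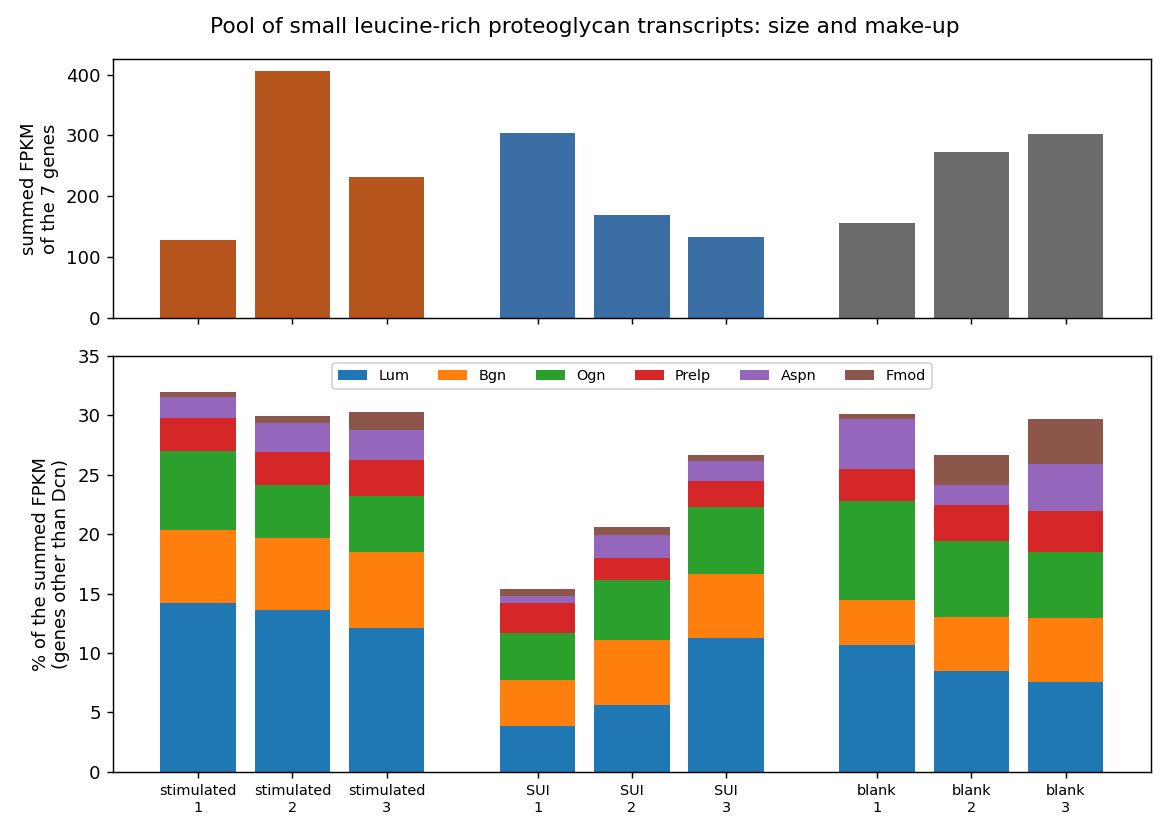
The upper bars give the summed FPKM of the 7 genes in each library, and the stacked bars below give the percentage of that sum taken by each gene other than Dcn. The sums overlap between groups, while the Lum share is 12.1% to 14.2% in the stimulated libraries against 3.84% to 11.3% in SUI and 7.53% to 10.7% in blank libraries.

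A ratio of neighbouring genes within a library does not depend on depth or scaling. The ratio of Lum to Dcn in FPKM was 0.209, 0.194 and 0.174 in stimulated libraries, 0.0453, 0.0713 and 0.154 in SUI libraries and 0.153, 0.116 and 0.107 in blank libraries. All stimulated values exceed all others, while SUI and blank libraries overlap. The log2 difference was 1.27 for stimulated over SUI and 0.63 for stimulated over blank, each with p = 0.1 in a two-sided exact permutation test, which is the smallest p that 3 against 3 libraries allow. The value for SUI over blank was -0.65 (exact permutation p = 0.4).

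Of the other neighbours, the log2 ratio of Aspn to Ogn averaged -1.21 ± 0.58 in stimulated, -1.95 ± 0.73 in SUI and -1.14 ± 0.74 in blank libraries (SD). That of Fmod to Prelp averaged -2.03 ± 0.93 in stimulated, -1.92 ± 0.34 in SUI and -0.97 ± 1.61 in blank libraries. Groups overlapped in both ratios, and all their exact permutation p were 0.3 or above.

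Decorin was also set against Col1a1, the main chain of the collagen I that it coats. The ratio of Dcn to Col1a1 in FPKM was 6.36, 2.75 and 4.80 in stimulated libraries, 19.0, 23.8 and 9.28 in SUI libraries and 2.80, 5.40 and 4.61 in blank libraries. All SUI libraries lie above all others, and stimulated and blank libraries overlap. The log2 difference was 1.97 for SUI over blank and -1.88 for stimulated over SUI (exact permutation p = 0.1 each), and 0.09 for stimulated over blank (exact permutation p = 0.8). Across the 12 ratio tests, no p adjusted by Benjamini-Hochberg was under 0.3, and with 3 libraries a group none could pass 0.05.

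**Figure D4:**
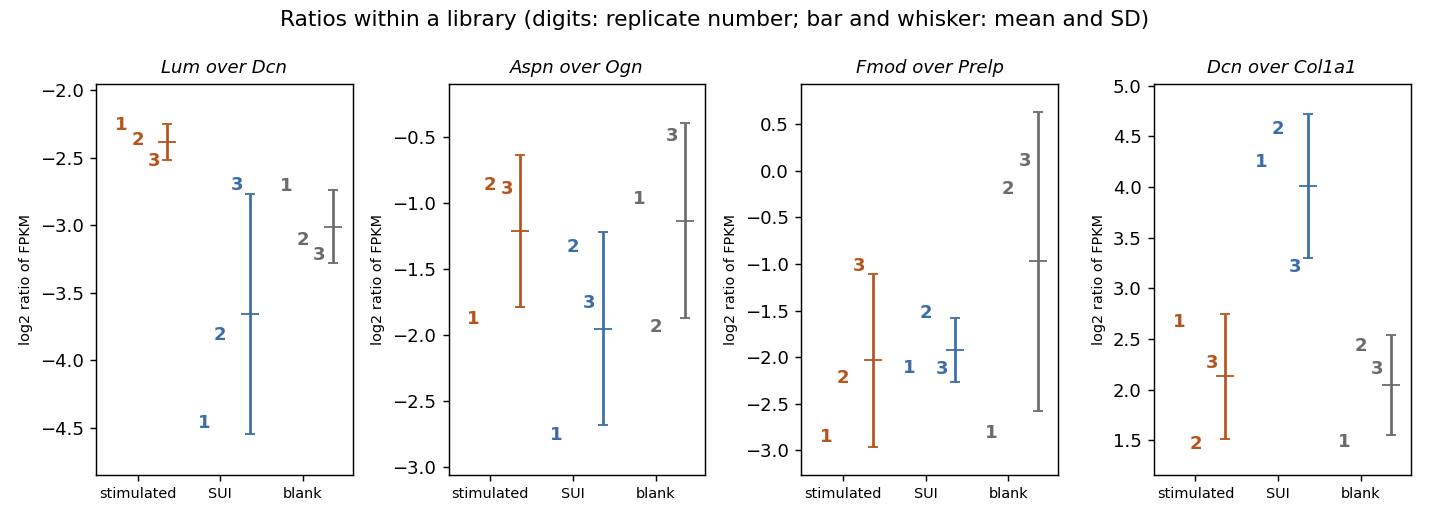
Log2 ratios of FPKM within each library for the neighbouring pairs and for Dcn over Col1a1; digits are replicate numbers, and bars with whiskers are means ± SD of 3 libraries. Lum over Dcn is highest in the 3 stimulated libraries (mean -2.38 against -3.66 in SUI and -3.01 in blank), and Dcn over Col1a1 in the 3 SUI libraries (mean 4.01 against 2.13 in stimulated and 2.04 in blank).

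Among 11 other genes of the family, 9 were tested, and Epyc and Nyx, with 12 and 51 counts over all libraries, were not. In SUI over blank all 9 had a negative log2 fold change (median -0.84), and 4 had an unadjusted p under 0.05, namely Ecm2 (-1.55 ± 0.35), Kera (-5.19 ± 1.28), Omd (-1.01 ± 0.39) and Chad (-1.23 ± 0.53). Kera, keratocan, known from cornea and tendon, was at 0.230, 0.307 and 0 CPM in SUI libraries, against 4.16, 6.10 and 9.66 CPM in blank libraries. In stimulated over SUI 8 of 9 were positive (median 0.79), and those with an unadjusted p under 0.05 were Kera (3.78 ± 1.21), Ecm2 (1.08 ± 0.35), Tsku (1.47 ± 0.57) and Chad (1.18 ± 0.52). None passed with edgeR in either comparison. Over all genes tested, 49.2% were negative in SUI over blank, and 5.34% were lower at an unadjusted p under 0.05. In stimulated over SUI 52.6% were positive, and 5.23% were higher at that level. The same shares apply to the lists that follow. Omd, osteomodulin, which lies between Ogn and Aspn, stayed at 2.38, 5.54 and 5.01 CPM in stimulated libraries, against 3.67, 7.11 and 3.80 CPM in SUI libraries (log2 fold change -0.17 ± 0.38). Against blank libraries, at 10.5, 11.7 and 7.08 CPM, stimulated libraries were lower without overlap (-1.18 ± 0.39, edgeR adjusted p = 0.898). Podn, podocan, was the most counted of these relatives and nearly level, at 141, 122 and 136 CPM on average in stimulated, SUI and blank muscle, and Chadl, Optc and Podnl1 were below 0.4 CPM in every group mean.

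The collagens and fibre proteins to which these proteoglycans bind had negative log2 fold changes in SUI over blank in 17 of 17 tested genes (median -1.14, 12 with an unadjusted p under 0.05). Among all genes 49.2% were negative, and 5.34% were lower at that level. In stimulated over SUI 16 of 17 genes of the list were positive (median 0.92, 10 with an unadjusted p under 0.05), against 52.6% and 5.23% of all genes. Col1a1 measured 108, 671 and 241 CPM in stimulated, 73.2, 38.7 and 75.3 in SUI and 370, 243 and 309 in blank libraries, with every SUI library below every other library. Fbn1, which builds microfibrils, averaged 100 CPM in stimulated, 37.2 in SUI and 113 in blank muscle, and Col5a1, a chain that nucleates collagen fibrils, 54.9, 15.5 and 41.5 CPM. In stimulated over blank 10 of 17 were positive and 7 negative (median 0.04), against 54.3% and 45.7% of all genes. Only 3 had an unadjusted p under 0.05, all lower without overlap, against 1.81% of all genes. These were Col11a2 (-1.25 ± 0.34), Col2a1 (-4.11 ± 1.46) and Col11a1 (-1.55 ± 0.62). None of the 17 passed with edgeR in any comparison.

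Of 24 tested enzymes that build the sugar chains of proteoglycans, 17 were negative in SUI over blank (median -0.24), and 2 of 24, Csgalnact2 (-0.67 ± 0.23) and Dsel (-0.87 ± 0.36), had an unadjusted p under 0.05, against 5.34% of all genes. In stimulated over SUI 19 of 24 were positive (median 0.39). There 2 of 24 had an unadjusted p under 0.05, against 5.23% of all genes, namely the keratan sulfate enzymes Chst1, a sulfotransferase (1.35 ± 0.46), and B3gnt7 (1.01 ± 0.36), which extends the chain that lumican and fibromodulin can carry. None of the 24 passed with edgeR.

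Among 14 proteases and their cofactors, Bmp1, which trims the propeptides of biglycan and of fibrillar collagens, measured 15.6, 33.5 and 21.0 CPM in stimulated libraries, against 13.2, 10.9 and 11.4 CPM in SUI libraries, without overlap (0.98 ± 0.27, edgeR adjusted p = 0.425). Its helper Pcolce had 1.34 ± 0.42 and its relative Tll1 1.50 ± 0.52 in the same comparison. The collagenase Mmp13 had -3.18 ± 1.12 in SUI over blank (edgeR adjusted p = 0.551). It averaged 0.0221 CPM in stimulated, 0.268 in SUI and 2.48 in blank muscle. These Mmp13 levels rest on few counts, 5, 4 and 0 in stimulated and 78, 8 and 4 in SUI libraries. The SUI mean thus comes mostly from SUI replicate 1. The list as a whole was mixed, with 9 of 14 negative in SUI over blank and 9 of 14 positive in stimulated over SUI.

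The growth factors and receptors that these proteoglycans bind had no common direction, with 14 of 25 negative in SUI over blank and 12 of 25 positive in stimulated over SUI. Ccn2, a matricellular protein that binds decorin, was the only gene of the lists past the threshold, at 65.6, 97.8 and 119 CPM in stimulated libraries, against 11.1, 15.0 and 17.6 CPM in SUI libraries (2.69 ± 0.30, edgeR adjusted p = 0.0444). That call was lost in 13 of 21 alternatives, among them library totals, the 6-library fit, both log2 FPKM scales and leaving out any library other than stimulated replicate 1, with adjusted p up to 0.298 and log2 fold changes of 2.30 to 2.89. Musk, the synaptic kinase that binds biglycan, was at 1.43 ± 0.30 in SUI over blank and -0.89 ± 0.29 in stimulated over SUI. Of 18 tested genes of larger proteoglycans and hyaluronan, 14 were negative in SUI over blank and 14 positive in stimulated over SUI. Vcan, versican, had -1.86 ± 0.32 in SUI over blank and 1.54 ± 0.31 in stimulated over SUI, with edgeR adjusted p above the threshold in both. Hapln1, a link protein, was at 0 counts in all SUI libraries, with 21, 13 and 26 counts in blank and 3, 7 and 4 in stimulated libraries. With the SUI group set to a floor of 3 counts in all, Hapln1 was at least 23.9-fold lower in SUI than in blank muscle (edgeR adjusted p = 0.330). Acan, aggrecan, had 0 counts in the stimulated group, 22, 5 and 0 in SUI libraries and 33, 17 and 88 in blank libraries. Stimulated muscle was thus at least 69.0-fold lower than blank muscle on the same floor (edgeR adjusted p = 0.898). This floor covers counting error only, not variation between libraries.

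The genes whose profile over the 9 libraries was most like the mean of the 7 members were Itgbl1, Cd276, Anxa1, Serpinf1 and Adamtsl3, out of 12081 non-members with a mean CPM of at least 1. Likeness was the root mean squared difference of centred log2 CPM, which was 0.194, 0.196, 0.224, 0.251 and 0.258 log2 units for these genes. Within the family, Prelp was nearest to the mean (0.217) and Fmod farthest (0.964). The closest pair was Dcn and Prelp, at 0.314, and Fmod was the farthest member from each of the other 6. Aspn was nearest to its genomic neighbour Ogn (0.664), whereas Lum was nearest to Bgn (0.505) and not to its neighbour Dcn.

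Marker lists of other cell types are given beside these genes. For fibro-adipogenic cells, the fibroblast-like cells of muscle, the summed level of 12 markers was 1201 to 3053 CPM in stimulated, 1194 to 1367 in SUI and 1256 to 1734 in blank libraries, and their mean centred log2 CPM was -0.50, 1.38 and 0.39 in the stimulated libraries. That mean was -0.65, -0.39 and -0.59 in SUI and 0.06, 0.43 and -0.13 in blank libraries, with all SUI values below all blank ones. The list had 10 of 11 tested genes negative in SUI over blank and 10 of 11 positive in stimulated over SUI, of which 2 and 6 had an unadjusted p under 0.05, and 11 of 11 positive in stimulated over blank (median 0.36), where the median of the members was -0.13. Of all genes, 49.2%, 52.6% and 54.3% had these directions in the 3 comparisons. The shares at an unadjusted p under 0.05 were 5.34% and 5.23% in the first 2. The sums of this list overlapped between all groups, and Gsn was their largest part. Gsn averaged 1703 CPM in stimulated, 1156 in SUI and 1300 in blank muscle. Ly6a and Tcf21 were at 0 in at least 1 library. For tendon cells, 9 markers summed to 110 to 160 CPM in stimulated, 51.8 to 89.4 in SUI and 135 to 219 in blank libraries, so that SUI lay below both other groups without overlap, with Tnmd and Kera at 0 in at least 1 library. The tendon list had 8 of 9 genes negative in SUI over blank, 7 of 9 positive in stimulated over SUI and 7 of 9 negative in stimulated over blank. Smooth muscle, endothelial, macrophage, Schwann cell and adipocyte lists had sums that overlapped between SUI and each of the other groups, except the endothelial list in stimulated libraries (293 to 371 CPM, against 210 to 262 in SUI). Cartilage and bone markers summed to 1.70 to 3.54 CPM in stimulated, 1.08 to 5.57 in SUI and 4.14 to 26.4 in blank libraries, with 6 of 8 at 0 in at least 1 library. Of the 7 tested, 7 were negative in SUI over blank (median -2.52), 6 in stimulated over SUI and 6 in stimulated over blank. The part of cell make-up in the results on the members was not tested.

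**Figure D5:**
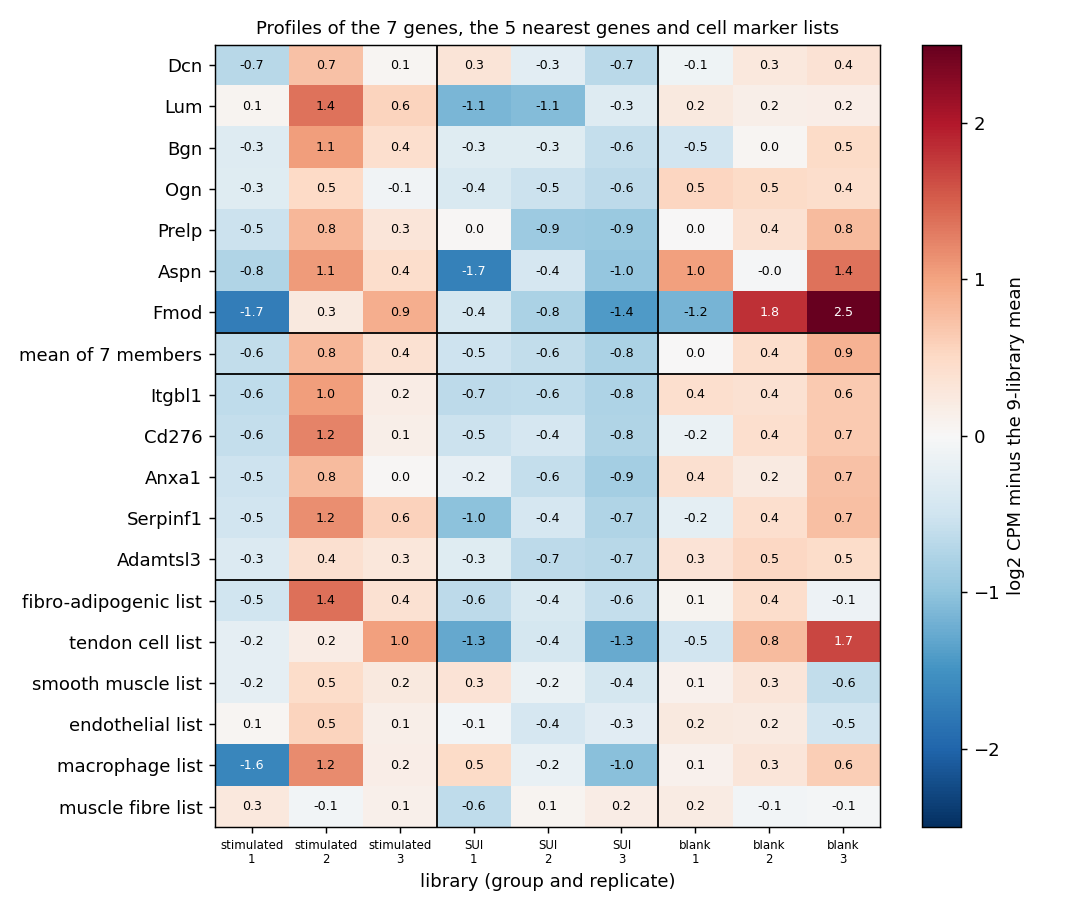
Log2 CPM minus the 9-library mean for each member, their mean, the 5 genes nearest to that mean and the mean of 6 cell marker lists, with libraries in columns. Stimulated replicate 2 is high for the mean of the members (0.83) and for the fibro-adipogenic list (1.38), all SUI libraries are low for the mean of the members (-0.51 to -0.80), and Fmod spans -1.73 to 2.54.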

How the data were processed

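RNA of 9 libraries was analysed, 3 per group, with groups and replicate numbers read from the titles, although another label names the SUI libraries sham. Bowtie2, RSEM 1.3.1, DESeq2 1.4.5 and mRatBN7.2 are named in the submitters' processing notes. The authors deposited expected counts, as whole numbers, and FPKM, scaled by gene length and library size. No source used here gives the strand setting of the counting.

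Counts were filtered with filterByExpr (16256 of 30518 rows kept), scaled by TMM and tested with edgeR 4.0.16 (robust quasi-likelihood F test, R 4.3.3) in one fit of all 9 libraries, with Benjamini-Hochberg adjustment over all genes and a threshold of 0.05. Standard errors are the log2 fold change over the square root of F. Ratios were tested with two-sided exact permutation tests (scipy 1.17.1). The edgeR and DESeq2 steps were tested on simulated data.

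The members, gene lists and tests were chosen with earlier results of these data known. Besides the 7 members, the rule for named genes took up to 3 genes per list and comparison by smallest p, all counted relatives and the 5 nearest profiles; of these, only those that carry a comparison are printed, and some relatives, marker genes and Col1a1 values were chosen after their values were seen. Of the list genes, B3gat3, Tnxb and Cilp2 matched no row and are not analysed here. Older symbols were looked up in a RefSeq table of GRCr8 used for names only.

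Alternatives were DESeq2 1.42.0, DESeq2 size factors, library totals, testing every counted gene, keeping genes with a mean CPM of at least 1, limma 3.58.1 (voom with sample weights, and log2 FPKM with pseudocounts of 1 and 0.1), 6-library fits, a replicate block and each library left out. Removal of the gene length trend, and a fit without both blank replicate 1 and stimulated replicate 2, were added after the data were seen. A count of 3 corresponds to 0.0210 to 0.0793 CPM per library, a floor that covers counting error only.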

Additional observations from a re-analysis of the deposited data

How the results depend on the processing

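Of 441 member values under alternatives, 428 kept their direction and side of the threshold, 3 passed it (the DESeq2 calls of Ogn, Aspn and Lum) and 10 changed sign. No member passed in the main fit, so a call could be gained but not lost. The 428 therefore say little about how steady the sizes were. DESeq2 called 176 genes and 2 members in SUI over blank, 208 genes and 1 member in stimulated over SUI, and 21 genes in stimulated over blank, against 0, 2 and 1 genes with edgeR (1329, 1300 and 613 at an unadjusted p under 0.05). For stimulated over SUI, voom called 48 genes and library totals 1, and the 6-library fits, both log2 FPKM scales and the fit without blank replicate 1 and stimulated replicate 2 called 0. For stimulated over blank, the 6-library fit, log2(FPKM + 1) and that fit called 0. The fit without both libraries also gave -0.67 as the median of the members and -0.19 for Bgn in stimulated over blank, and -0.14 for Dcn in stimulated over SUI. Library totals moved the median of all genes to 0.19 in SUI over blank and -0.11 in stimulated over SUI, and gave 0.034 for Dcn in stimulated over blank.

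Deviations of libraries from their group means correlated between -0.218 and 0.113 for same-numbered libraries of different groups. For pairs with different numbers the range was -0.177 to 0.211. With so few libraries this cannot decide whether equal numbers mark a pairing or a shared batch. The replicate block left 1 gene called in stimulated over SUI and 0 in stimulated over blank, and called no member.

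Leaving out 1 library at a time gave 0 to 1 genes called in SUI over blank, 0 to 3 in stimulated over SUI and 0 to 1 in stimulated over blank, and no member. The median of the members ranged from -1.09 to -0.88, from 0.49 to 1.17 and from -0.49 to 0.15. Dcn ranged from -0.12 (without stimulated replicate 2) to 0.61 in stimulated over SUI. In stimulated over blank Dcn ranged from -0.45 to 0.25 and Prelp from -0.49 to 0.15, each extreme without stimulated replicate 2 or 1. The causes were not tested.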
